A study of Mus musculus with 10 samples.

Results

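The smooth muscle and pericyte genes examined here are Acta2, Tagln, Myh11, Cnn1, Myocd, Lmod1 and Mylk, which mark smooth muscle, and Rgs5, Cspg4 and Kcnj8, which mark pericytes. They are 10 of 21853 protein-coding genes, and the rule takes them by name and uses no measured value. Positions are on the mm10 build, with genes as GENCODE gives them. Accessible chromatin was read in and around them as ATAC-seq peaks whose summit lay inside the gene or within 25 kb of it. Each of the 9 peak lists held 101 to 125 such peaks, out of 94909 to 142743 in all. Merged over the lists, they formed 167 of 184764 regions, each reaching 250 bp to either side of a summit. Of these, 15 lay at the promoter of a neighbouring gene and were counted apart, which left 152 regions: 13 within 1 kb of a coding start site of the gene itself, 93 in the gene body, of which 86 were intronic, and 46 in the flanks.

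The lists came from lineage-traced embryonic mouse hearts of the genotype Rosa26tdTomato;Wt1CreERT2/+ on a C57BL/6J background, in which tamoxifen given at E9.5 marks cells that express Wt1, and all their progeny, with tdTomato. Epicardial cells were sorted as CD31-tdTomato+PDPN+ at E11.5 (3 libraries) and at E17.5 (3 libraries), and epicardium-derived cells (EPDCs) as CD31-tdTomato+PDPN- at E12.5 (1 library) and E13.5 (2 libraries, of which sample 2 merges 2 technical replicates). Cre was driven by the Wt1 locus in all of them, and no group was sorted on a smooth muscle or pericyte marker, so the EPDCs cannot be taken as mural cells. Each library pooled littermate hearts, 6 per sample at E11.5, 4 at E17.5 and, as the labels have it, 4 to 13 at E13.5, where the methods put the fewest at 9. EPDCs and epicardium differ at once in the podoplanin gate, in stage and in the making of the lists, and the parts of these cannot be told apart. In bulk chromatin, a change in the share of cells with an open site cannot be told apart from a change within the cells.

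Smooth muscle cells and pericytes, together called mural cells, wrap the coronary vessels, and a share of them descends from epicardial cells that leave the surface of the heart by epithelial-to-mesenchymal transition. Contractile genes of smooth muscle are driven by serum response factor, which binds a short element called the CArG box, together with its coactivator myocardin, the product of Myocd. Pericytes carry less contractile protein and are recognised by signalling and surface genes such as Rgs5, Cspg4 and Kcnj8.

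The CArG box is the sequence feature that this gene group is best known for. Searched on both strands as an exact pattern, it stood in the 250 bases before a coding start site in 3 of the 10 genes, Acta2, Cnn1 and Tagln, and in 497 of all 21853 genes (2.27%). The 3 windows are shown 5′ to 3′ on the strand of the gene, from mm10, with the box in capitals. The first base of the box lay 67, 66 and 112 bases before the starts of Acta2-202, Cnn1-202 and Tagln-201. The starts of Acta2-202 and Cnn1-202 lie inside their genes, so that these windows are intronic in longer transcripts.
Acta2 upstream of Acta2-202, chr19:34254231-34254480, minus strand: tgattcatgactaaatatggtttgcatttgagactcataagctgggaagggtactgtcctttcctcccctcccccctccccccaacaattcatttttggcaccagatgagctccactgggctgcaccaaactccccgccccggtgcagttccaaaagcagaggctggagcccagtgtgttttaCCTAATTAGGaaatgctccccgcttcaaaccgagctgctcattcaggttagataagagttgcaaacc
Cnn1 upstream of Cnn1-202, chr9:22099942-22100191, plus strand: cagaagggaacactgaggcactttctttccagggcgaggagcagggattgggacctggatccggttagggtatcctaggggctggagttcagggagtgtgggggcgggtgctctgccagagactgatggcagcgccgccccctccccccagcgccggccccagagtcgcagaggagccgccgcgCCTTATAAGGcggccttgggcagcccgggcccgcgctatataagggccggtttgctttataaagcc
Tagln upstream of Tagln-201, chr9:45936059-45936308, minus strand: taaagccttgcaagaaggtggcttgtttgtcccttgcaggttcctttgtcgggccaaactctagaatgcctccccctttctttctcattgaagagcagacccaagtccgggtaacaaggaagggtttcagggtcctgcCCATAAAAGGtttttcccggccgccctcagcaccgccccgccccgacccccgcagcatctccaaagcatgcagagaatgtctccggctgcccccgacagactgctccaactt

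Within the accessible regions themselves, 11 of the 152 (7.24%) held a CArG box, against 4592 of all 184764 regions (2.49%). The boxes lay in 2 promoter regions, those of Tagln and of the Cnn1-202 start, in 5 regions of gene bodies and in 4 of flanks. A pair of them outside promoters are shown with 25 bases on either side, since their regions were called as different between groups. No match of the exact pattern says only that these letters are not in the window.
CArG box of the Acta2 region 10.3 kb upstream, chr19:34265809-34265868, minus strand: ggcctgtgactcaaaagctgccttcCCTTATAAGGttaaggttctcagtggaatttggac
CArG box of the Mylk region at +239.2 kb, chr16:34984417-34984476, plus strand: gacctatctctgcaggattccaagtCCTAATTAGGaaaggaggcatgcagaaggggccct

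Accessibility is given as a rank percentile. The summits of a list were ranked by the −log10 p of the peak caller, so that a value of 90 means a peak stronger than 90% of those in the same library, and 0 means that no peak was called, which does not show that the site was closed. A promoter takes the strongest summit within 1 kb of a coding start site. Values for EPDCs are always given in the order E12.5, E13.5 sample 1 and E13.5 sample 2. Promoters and regions called in at least 2 of the 9 lists were tested across the whole genome with limma (15641 promoters, 155564 regions), and called at an adjusted p under 0.05. The depth of the lists, read as the fragments that make up genome background, was 2.07 to 4.26 per position in 8 libraries and 10.9 in E13.5 EPDC sample 2. Depth does not enter a rank, but it moves the number of weak peaks and so the percentiles of the others. The EPDC lists hold 252 to 268 peaks outside the main chromosomes, where the epicardial lists hold 0, so the lists were not made alike. There were 83 stretches of the genome that held 5 or more regions called in all EPDC lists and no epicardial peak, and 1 of them touched the far end of the Cnn1 flank, at 2 promoters of neighbouring genes that are not among the 152 regions. The promoter of Wt1, which marks the epicardium, ranked between 90.4 and 97.5 in all 9 libraries, and it was lower at E17.5 than at E11.5 (-5.58 points, limma, adjusted p = 0.00203) and higher in EPDCs than at E17.5 (4.19 points, adjusted p = 0.00802). These are the directions found below for the smooth muscle promoters.

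Promoter accessibility separated E17.5 epicardium from both other groups in most of the genes, though not in Myocd, Cspg4, Kcnj8 or Mylk. At E17.5 the promoters of Acta2, Tagln, Myh11, Cnn1, Lmod1 and Rgs5 were lower than at E11.5, with differences of -10.42 (Lmod1) to -47.10 (Rgs5) percentile points, and none was higher. EPDCs had higher promoters than E17.5 epicardium in 8 genes, by 10.88 (Myh11) to 43.45 (Rgs5) points. Against E11.5 epicardium, no promoter of the 9 tested was called in either direction in EPDCs.

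Of the 9 promoters tested, 6 were lower and 0 higher at E17.5 than at E11.5, where 14.4% of all promoters were called lower and 3.84% higher. The median difference of the 9 was -11.9 percentile points, against -0.45 over all promoters. In EPDCs against E11.5 epicardium, 0 were higher and 0 lower in limma, beside 5.29% and 12.9% of all promoters. At an unadjusted p under 0.05 there were 2 higher, Acta2 and Myocd, and 0 lower, and the median difference was 0.14 points against -0.79 over all promoters. In EPDCs against E17.5 epicardium, 8 were higher and 0 lower, beside 15.1% and 14.2% of all promoters, with a median of 11.99 points against -0.09. The 3 comparisons share their libraries in pairs, so their counts are not independent of each other.

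**Figure D1:**
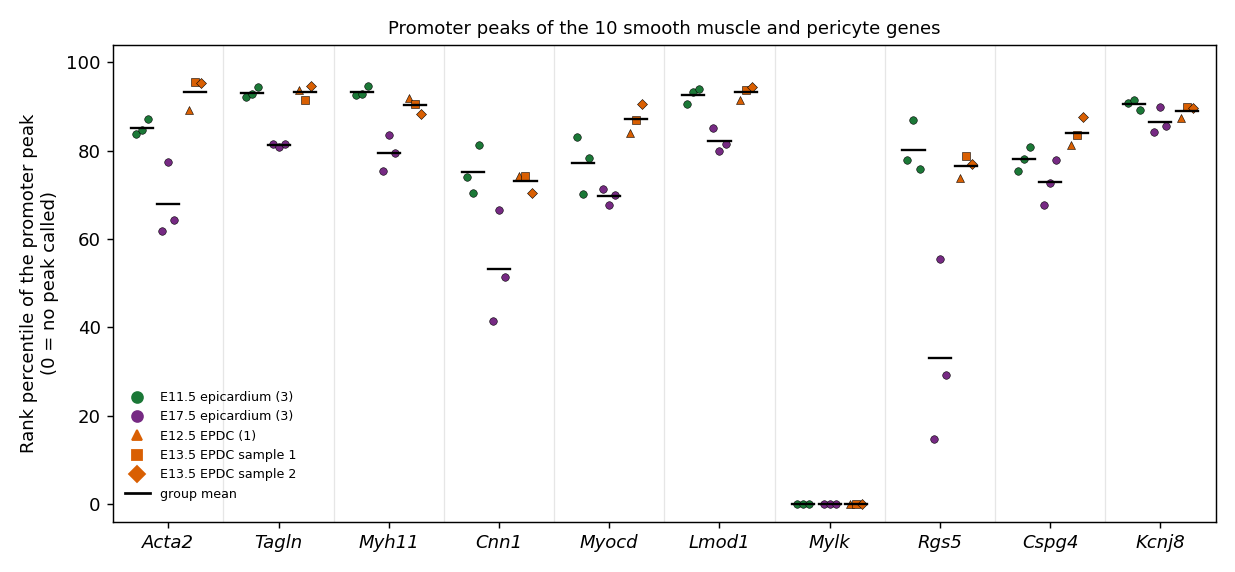
Rank percentile of the promoter peak (y axis, 0 where no peak was called) of each of the 10 genes (x axis) in the 9 libraries, with a line at each group mean and a marker shape for each EPDC library. The E17.5 libraries lie below the E11.5 libraries without overlap in Acta2, Tagln, Myh11, Cnn1, Lmod1 and Rgs5, and Mylk is at 0 throughout.

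Myocd (chr11:65176561-65269989, minus strand) encodes myocardin, which switches on the contractile genes together with serum response factor. Its promoter ranked at percentiles 83, 70.1 and 78.4 in the E11.5 libraries, 71.4, 67.6 and 69.8 in the E17.5 libraries, and 84, 86.8 and 90.6 in EPDCs. Every EPDC library stood above every epicardial library, while the epicardial stages overlapped. EPDCs exceeded E17.5 epicardium by 17.52 points (SE 3.51, limma, adjusted p = 0.00222), a call not made with fragments over background (0.379 in log2). Against E11.5 epicardium the difference was 9.97 points and did not pass over all promoters (adjusted p = 0.0657), although the region at the same start was called over all regions (adjusted p = 0.0449). Over the 9 libraries, the exact permutation test of EPDCs against all epicardium gave p = 0.0119, the smallest p that 84 assignments can give.

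A coding start site inside Myocd, 64.5 kb from the gene's 5′ end, showed a wider contrast. The region at this start (chr11:65205218-65205718) ranked at 32.1, 32.2 and 21.0 at E11.5, was called in 0 of the 3 E17.5 libraries, and ranked at 65.0, 74.1 and 74.7 in EPDCs. None of the groups overlapped. EPDCs stood 42.8 points above E11.5 (adjusted p = 0.000524) and 71.2 above E17.5 epicardium (adjusted p = 1.89e-05), and E17.5 differed from E11.5 by -28.4 points (limma, adjusted p = 0.00423). The last difference was not called with a stricter threshold on the peaks, with equal numbers of top peaks, or when peaks were ranked by fold enrichment.

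Acta2 (chr19:34241090-34255590, minus strand) encodes smooth muscle α-actin, the main actin of the contractile apparatus and the marker most used for smooth muscle. Its promoter ranked at 83.8, 84.6 and 87.1 at E11.5, at 61.7, 77.5 and 64.3 at E17.5, and at 89.3, 95.6 and 95.3 in EPDCs. The 3 groups did not overlap, with EPDCs the highest. In group means these were 85.2 ± 1.73, 67.8 ± 8.48 and 93.4 ± 3.53 (SD, n = 3 each). E17.5 differed from E11.5 by -17.33 points (SE 3.62, limma, adjusted p = 0.00459) and EPDCs were 25.53 points above E17.5 (adjusted p = 0.000141). The 8.20 points between EPDCs and E11.5 did not pass (adjusted p = 0.136). The strongest Acta2 promoter summit held 125, 133 and 130 fragments at E11.5, 52, 114 and 76 at E17.5, and 186, 351 and 753 in EPDCs, of which sample 2 of E13.5 has the deepest list. With the replicate block, and on the scale of fragments over background, the fall from E11.5 to E17.5 was not called.

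A start site inside Acta2, that of Acta2-202, lay beside a weaker region (chr19:34254318-34254818) which moved the other way. It ranked at 31.2, 19.1 and 33.0 at E11.5, 37.5, 43.6 and 50.9 at E17.5, and 27.5, 22.0 and 23.6 in EPDCs. All E17.5 libraries stood above all EPDC libraries, with a difference of EPDCs from E17.5 of -19.61 points in the means (limma, adjusted p = 0.0343), and the other comparisons were not called.

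Tagln (chr9:45929619-45936058, minus strand), which encodes the actin-binding protein SM22α, had promoter values that lay close together within each group. The Tagln promoter, whose upstream CArG box is printed above and whose region holds a second one beside its summit, ranked at 92.2, 92.9 and 94.3 at E11.5, 81.6, 80.7 and 81.5 at E17.5, and 93.8, 91.5 and 94.6 in EPDCs. EPDC and E11.5 libraries were intermingled, and all lay above E17.5. E17.5 differed from E11.5 by -11.86 points (SE 1.48, limma, adjusted p = 0.000123), EPDCs were 11.99 points above E17.5 (adjusted p = 3.76e-05), and EPDCs differed from E11.5 by 0.14 points (adjusted p = 0.966).

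Myh11 (chr16:14194535-14291372, minus strand) encodes the smooth muscle myosin heavy chain, the motor protein of contraction and a marker of mature smooth muscle. Its promoter ranked at 92.6, 92.9 and 94.5 at E11.5, 75.3, 83.5 and 79.4 at E17.5, and 91.9, 90.5 and 88.4 in EPDCs. The EPDC libraries lay just under E11.5 and clear of E17.5. The differences were -13.98 points for E17.5 against E11.5 (SE 2.08, limma, adjusted p = 0.000447), 10.88 for EPDCs against E17.5 (adjusted p = 0.00162) and -3.09 for EPDCs against E11.5 (adjusted p = 0.331). On the fragment scale the higher value in EPDCs than at E17.5 was not called.

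Lmod1 (chr1:135324807-135368065, plus strand), whose product leiomodin nucleates actin filaments in smooth muscle, was also lowest at E17.5. Its promoter ranked at 90.5, 93.2 and 93.9 at E11.5, 85.0, 79.8 and 81.5 at E17.5, and 91.5, 93.6 and 94.4 in EPDCs. E17.5 differed from E11.5 by -10.42 points (SE 1.74, limma, adjusted p = 0.00099) and EPDCs were 11.08 points above E17.5 (adjusted p = 0.000333), with no overlap in either case. Neither call held when peaks were ranked by fold enrichment.

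Cnn1 (chr9:22099216-22109630, plus strand) encodes calponin, which restrains the actomyosin motor. The promoter ranked at 74.0, 70.4 and 81.3 at E11.5, 41.5, 66.7 and 51.3 at E17.5, and 74.3, 74.3 and 70.4 in EPDCs. Its E17.5 values were the most scattered of the contractile genes, yet all lay below the other groups. E17.5 differed from E11.5 by -22.11 points (SE 5.81, limma, adjusted p = 0.0172), and EPDCs were 19.89 points above E17.5 (adjusted p = 0.0204). The first call was lost without E11.5 replicate 3 (-19.1), E17.5 replicate 1 (-16.3) or E17.5 replicate 3 (-21.2), and the second without E17.5 replicate 1 (14.0) or 3 (19), or without the E12.5 library (19.2) or sample 1 of E13.5 (19.3). Neither call was made with fragments over background, where EPDCs exceeded E17.5 by only 0.0858 in log2, nor with a fit without trend. The first was also lost with the replicate block and when peaks were ranked by fold enrichment, and the second in a fit of only these groups.

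The Cnn1-202 start, the one that carries the CArG box, showed larger differences in points than the first promoter. Its region (chr9:22099938-22100438) ranked at 49.8, 54.1 and 43.6 at E11.5 and at 50.8, 41.7 and 62.1 in EPDCs, and was called in 0 of the 3 E17.5 libraries. It was lower at E17.5 than at E11.5, by a difference of -49.18 points (limma, adjusted p = 0.000394) and 51.53 points higher in EPDCs than at E17.5 (adjusted p = 0.000224), while EPDC and E11.5 libraries overlapped.

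Mylk (chr16:34745210-35002420, plus strand) encodes the myosin light chain kinase that starts contraction, and it had no peak within 1 kb of a coding start site (chr16:34784921 and chr16:34994807) in any library. A region at the 5′ end of the gene (chr16:34744950-34745450), where the annotation starts a non-coding transcript, was one of the strongest of the set. It ranked at 97.1, 97.4 and 96.3 at E11.5, 97.7, 98.8 and 96.0 at E17.5, and 95.3, 96.6 and 97.5 in EPDCs. The groups overlapped throughout and no comparison was called.

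Among the pericyte genes, Rgs5 (chr1:169655501-169695813, plus strand), which encodes a brake on G-protein signalling, had the largest promoter difference of the 10 genes. Its promoter ranked at 77.8, 87.0 and 75.8 at E11.5, 14.7, 55.5 and 29.1 at E17.5, and 73.8, 78.8 and 77.0 in EPDCs. The E17.5 values spread widely, with an SD of 20.7 against 5.94 at E11.5 and 2.52 in EPDCs, but none reached the other groups. E17.5 differed from E11.5 by -47.10 points (SE 7.99, limma, adjusted p = 0.00111), and EPDCs were 43.45 points above E17.5 (adjusted p = 0.00119) with a difference of -3.65 from E11.5 (adjusted p = 0.793).

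Cspg4 (chr9:56865033-56899870, plus strand) encodes the NG2 proteoglycan of the pericyte surface. Its promoter ranked at 75.3, 78.0 and 80.9 at E11.5, 67.8, 72.8 and 77.9 at E17.5, and 81.2, 83.5 and 87.5 in EPDCs, so that every EPDC library lay above every epicardial one. EPDCs were 11.27 points above E17.5 (SE 3.28, limma, adjusted p = 0.0199), a call that was lost without E17.5 replicate 1 (8.75) and without sample 1 (11.6) or sample 2 (9.54) of E13.5, and with fragments over background (0.146 in log2). The remaining differences, -5.24 for E17.5 and 6.02 for EPDCs against E11.5, did not pass (adjusted p = 0.308 and 0.224). Kcnj8 (chr6:142564837-142571614, minus strand), the pore subunit of an ATP-sensitive potassium channel, ranked at 90.8, 91.5 and 89.1 at E11.5, 84.2, 89.8 and 85.6 at E17.5, and 87.3, 89.8 and 89.6 in EPDCs. It was called in no comparison, its widest difference being -3.92 points at E17.5 against E11.5 (SE 1.78, adjusted p = 0.15).

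With 3 libraries against 3, the exact permutation test cannot go below 0.10, and that value was reached in every promoter comparison called above. Other scales moved the balance of calls over all promoters, while the calls in these genes stayed in one direction. On the main scale 21.1% of all promoters called between E17.5 and E11.5 were higher, and this share became 57.2% with equal numbers of top peaks, 72.0% with the log2 of the score scaled to its list's total and 89.6% with fragments over background. The 9 promoters gave 0 higher and 6 lower on each of the first 3 of these scales, and 0 higher and 4 lower on the last. Of all promoters, 1626 of 15346 were lower with equal numbers of top peaks. With the scaled score 1531 of 15641 were lower, and with fragments over background 1192 of 15641. For EPDCs against E17.5 the share of higher calls was 51.5%, 75.1% when ranked by fold enrichment and 11.4% with fragments over background, where 4 of the 9 were higher and 0 lower. On that last scale, 1274 of all 15641 promoters were higher and 9916 lower. For EPDCs against E11.5 the share of higher calls was 29.1%, and 51.6%, 61.8% and 67.5% with equal numbers of top peaks, fold enrichment and the scaled score, which called 3, 1 and 3 of the 9 higher. Beside these stood 1705 of 15346, 1366 of 15641 and 3021 of 15641 promoters in all.

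**Figure D2:**
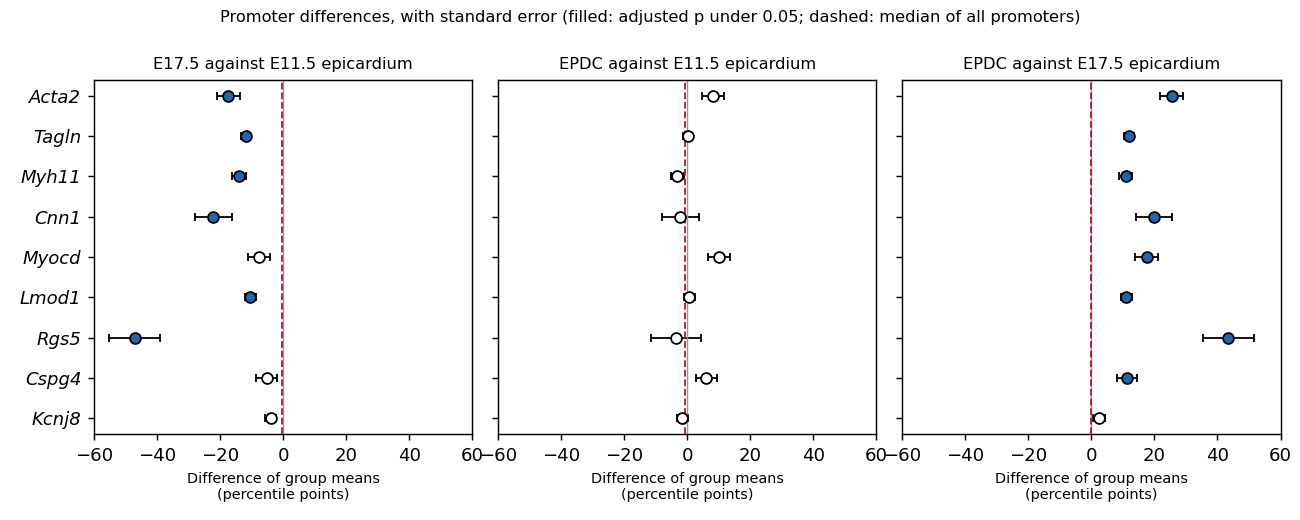
Difference of group means in percentile points (x axis, bars: standard error) for the 9 promoters tested (y axis), in the 3 comparisons. Filled points passed an adjusted p under 0.05 and the dashed line is the median of all promoters. All 9 points lie below 0 for E17.5 against E11.5, around 0 for EPDCs against E11.5, and above 0 for EPDCs against E17.5.

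The regions of these loci, promoters included, divided in all directions. Of the 152 regions, 77 to 105 were called in a library, 43 were called in all 9, and 131 passed the filter and were tested. All E11.5 and no E17.5 libraries called 15 regions (9.87%, against 10.7% of all 184764 regions), and all E17.5 and no E11.5 libraries called 7 (4.61%, against 4.38%). There were 5 regions called in every EPDC and no epicardial library (3.29%, against 3.20%), and 3 called in every epicardial and no EPDC library (1.97%, against 2.15%). These shares lay near those of the genome.

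At E17.5 against E11.5, 12 of the 131 regions were higher (9.16%) and 41 lower (31.3%), beside 9.10% and 25.1% of all regions. The median difference was -3.92 points against -3.98 over all regions. In EPDCs against E11.5, 15 were higher (11.4%) and 33 lower (25.2%), beside 10.3% and 22.8%, with a median of -1.83 points against -3.28. In EPDCs against E17.5, 35 were higher (26.7%) and 23 lower (17.6%), beside 20% and 16.3%, with a median of 0.75 points against 0.04. The shares lower at E17.5 than at E11.5 and higher in EPDCs than at E17.5 stood above those of all regions, and the other shares lay nearer to them. Scaling moved the balance of these calls. Of all regions called between E17.5 and E11.5, 26.6% were higher, and 45.8% with equal numbers of top peaks or 47.4% with fragments over background. For EPDCs against E11.5 the share was 31.1%, and 46.6% with equal numbers of top peaks. With these top peaks, 26 regions of these genes were higher and 24 lower, beside 21088 and 24207 of all 126618 regions. For EPDCs against E17.5 the share was 55.0%, and 37.6% with fragments over background, where 21 of the regions of these genes were higher (16.0%, as of all regions) and 26 lower (19.8%, against 26.6% of all regions). On that scale 27 were lower at E17.5 than at E11.5 (20.6%, against 20% of all regions), so this share and the 16.0% were near those of all regions. With the 13 promoter regions left out, 25 of 118 were higher in EPDCs than at E17.5 (21.2%, against 20% of all regions) and 22 lower (18.6%, against 16.3%), and 33 were lower at E17.5 than at E11.5 (28%, against 25.1%). In EPDCs against E11.5, 13 of these 118 were higher (11%, against 10.3%) and 33 lower (28%, against 22.8%). Without sample 2 of E13.5, the deepest EPDC library, 31 of the regions of these genes were higher in EPDCs than at E17.5 and 23 lower. The share of higher calls went from 60.3% to 57.4% in these genes and from 55.0% to 49.4% over all regions.

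**Figure D3:**
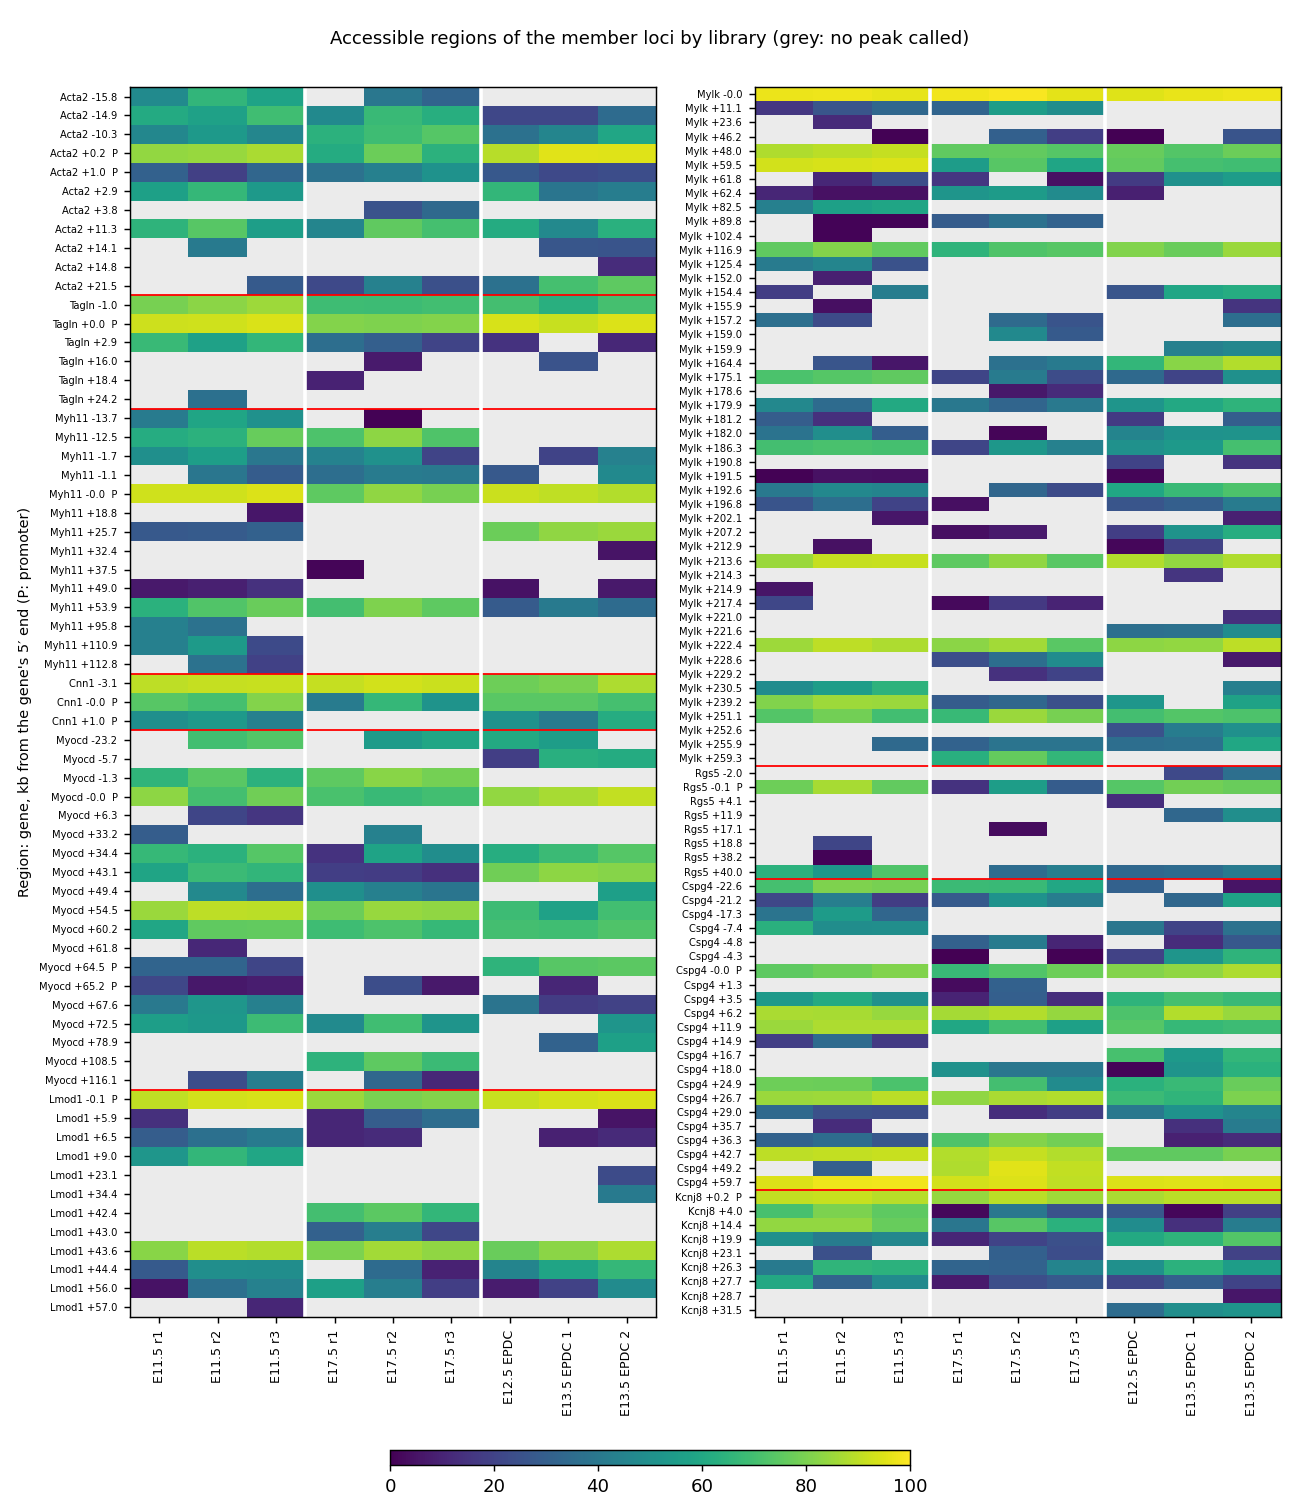
Rank percentile (colour, grey where no peak was called) of the 152 regions in the 9 libraries (columns), grouped by gene and ordered by distance in kb from the gene's 5′ end, with P marking promoters. The 43 regions called in all 9 libraries form unbroken bands, and 77 to 105 cells of each column are coloured.

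Regions that were strong in one group and weak or uncalled in another are shown here by the 251 bases around their centre, since they carry the contrasts between groups. The first 3 were highest in EPDCs, the next pair were uncalled in EPDCs, and the last was highest at E17.5. Sequences are from mm10, 5′ to 3′ on the strand of the gene, and capitals mark exact matches on either strand of the TEAD (CATTCC), AP-1 (TGANTCA) or T-box (AGGTGTGA) patterns, of AGATAA, called the GATA pattern here, or of the EBF or CArG patterns. Names give the distance of the region from the gene's 5′ end.
Myh11 +25.7 kb, chr16:14265504-14265754, minus strand: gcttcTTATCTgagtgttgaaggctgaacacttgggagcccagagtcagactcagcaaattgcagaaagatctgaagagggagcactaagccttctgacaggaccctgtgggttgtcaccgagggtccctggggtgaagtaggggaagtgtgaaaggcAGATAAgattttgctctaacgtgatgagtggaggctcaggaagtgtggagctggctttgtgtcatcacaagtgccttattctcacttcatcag
Cspg4 +16.7 kb, chr9:56881613-56881863, plus strand: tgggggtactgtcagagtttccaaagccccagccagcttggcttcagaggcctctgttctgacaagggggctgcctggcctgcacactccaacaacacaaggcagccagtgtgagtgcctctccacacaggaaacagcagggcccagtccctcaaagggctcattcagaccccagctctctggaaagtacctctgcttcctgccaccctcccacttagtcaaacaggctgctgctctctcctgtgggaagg
Myocd +43.1 kb, chr11:65226795-65227045, minus strand: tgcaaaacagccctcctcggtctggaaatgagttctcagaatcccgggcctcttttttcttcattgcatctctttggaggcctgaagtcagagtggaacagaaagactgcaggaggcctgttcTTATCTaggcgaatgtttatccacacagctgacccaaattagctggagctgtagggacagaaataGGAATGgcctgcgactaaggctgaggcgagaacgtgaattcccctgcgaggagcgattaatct
Myh11 −12.49 kb, chr16:14303734-14303984, minus strand: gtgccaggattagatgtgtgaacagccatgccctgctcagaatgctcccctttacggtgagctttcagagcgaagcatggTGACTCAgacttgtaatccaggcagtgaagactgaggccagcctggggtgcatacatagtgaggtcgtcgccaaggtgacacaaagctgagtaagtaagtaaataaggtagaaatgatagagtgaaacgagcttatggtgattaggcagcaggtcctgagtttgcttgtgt
Myocd −1.3 kb, chr11:65271123-65271373, minus strand: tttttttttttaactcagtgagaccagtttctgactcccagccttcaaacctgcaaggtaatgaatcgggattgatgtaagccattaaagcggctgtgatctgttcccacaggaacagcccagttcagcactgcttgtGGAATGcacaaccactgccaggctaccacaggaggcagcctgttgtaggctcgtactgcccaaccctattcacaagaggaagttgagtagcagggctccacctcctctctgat
Cspg4 +49.2 kb, chr9:56914088-56914338, plus strand: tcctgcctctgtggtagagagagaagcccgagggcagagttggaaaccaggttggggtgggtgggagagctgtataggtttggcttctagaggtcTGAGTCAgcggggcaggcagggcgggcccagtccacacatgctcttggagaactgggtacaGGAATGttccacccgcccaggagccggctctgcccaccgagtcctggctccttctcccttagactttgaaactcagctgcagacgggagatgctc

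The Myh11 intron at +25.7 kb (chr16:14265379-14265879), which holds a pair of GATA matches, ranked at 27.8, 28.8 and 31.0 at E11.5, was uncalled in all E17.5 libraries, and ranked at 77.5, 83.6 and 85.0 in EPDCs. Its 82.0 points over E17.5 were the largest gain of EPDCs over that stage in the 131 regions (limma, adjusted p = 5.39e-06), and it stood 52.8 points over E11.5 (adjusted p = 8.31e-05). Its difference of E17.5 from E11.5 was -29.2 points (adjusted p = 0.00173), a call not made with equal numbers of top peaks. The Cspg4 intron at +16.7 kb (chr9:56881488-56881988), in which no pattern matched, was called in 0 of 6 epicardial libraries and ranked at 71.0, 53.8 and 66.2 in EPDCs, 63.7 points above either stage. It passed the filter only through EPDCs, so no test is given. In both, every EPDC library stood above every epicardial one.

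An intron of Myocd at +43.1 kb (chr11:65226670-65227170), with a GATA and a TEAD match, ranked at 58.6, 68.0 and 65.7 at E11.5, 18.5, 17.6 and 13.9 at E17.5, and 78.3, 83.2 and 81.7 in EPDCs. The groups did not overlap, and all 3 comparisons were called. E17.5 differed from E11.5 by -47.4 points (limma, adjusted p = 7.01e-05), and EPDCs were 64.4 above E17.5 (adjusted p = 9.63e-06) and 17 above E11.5 (adjusted p = 0.0173, lost without sample 1 of E13.5). An intron of Mylk at +164.4 kb (chr16:34909361-34909861) ranked at 0, 26.2 and 6.1 at E11.5, 0, 37.3 and 41.2 at E17.5, and 66.1, 82.3 and 88.4 in EPDCs. It stood 68.2 points above E11.5 (adjusted p = 0.00244) and 52.7 above E17.5 (adjusted p = 0.0073) in EPDCs, while the epicardial stages overlapped. On the fragment scale neither of these calls was made, and the second was also lost in a fit of only the 2 groups.

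Other regions ranked high in epicardium and were weak or uncalled in EPDCs. The region 1.3 kb upstream of Myocd (chr11:65270998-65271498), with a TEAD match, ranked at 65.4, 74.5 and 64.3 at E11.5, then at 75.3, 82.3 and 79.1 at E17.5, and was uncalled in all EPDC libraries (-68.1 points against E11.5, limma, adjusted p = 2.18e-05, and -78.9 against E17.5, adjusted p = 5.98e-06). The Myocd promoter beside it had passed as higher in EPDCs against E17.5, and its region also against E11.5. The region at −12.49 kb, upstream of Myh11 (chr16:14303609-14304109), within the neighbouring gene Fopnl and with an AP-1 match, ranked at 61.9, 64.1 and 76.7 at E11.5, 71.9, 82.9 and 72.6 at E17.5, and was uncalled in EPDCs (-67.5 and -75.8 points, adjusted p = 4.98e-05 and 1.42e-05). The region 22.6 kb upstream of Cspg4 (chr9:56842200-56842700) ranked at 70.5, 80.6 and 79.6 at E11.5, 68.2, 67.9 and 59.8 at E17.5, and 31.1, 0 and 5.4 in EPDCs. The E12.5 library was thus the highest of the EPDCs there, and the difference from E11.5 was -64.7 points (adjusted p = 0.000371).

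The strongest regions of Myh11, Cnn1 and Myocd outside promoters, by mean percentile over the 9 libraries, were also lower in EPDCs, with no overlap with epicardium. The Myh11 intron at +53.9 kb (chr16:14237181-14237681) ranked at 64.0, 73.0 and 77.3 at E11.5, 70.3, 80.6 and 75.1 at E17.5, and 28.8, 41.3 and 34.9 in EPDCs (-36.5 points against E11.5, limma, adjusted p = 0.000776). The region 3.1 kb upstream of Cnn1 (chr9:22095911-22096411) ranked at 89.9, 91.4 and 91.7 at E11.5, 91.4, 93.1 and 92.1 at E17.5, and 78.1, 79.8 and 87.8 in EPDCs (-9.1 points against E11.5, adjusted p = 0.0123, a call lost in a fit of only the 2 groups, as was that against E17.5). The Myocd intron at +54.5 kb (chr11:65215219-65215719) ranked at 84.9, 90.2 and 89.8 at E11.5, 77.5, 84.6 and 83.3 at E17.5, and 68.6, 57.1 and 69.8 in EPDCs (-23.1 points against E11.5, adjusted p = 0.00123, and -16.6 against E17.5, a call lost in a fit of only the 2 groups). In Tagln the strongest such region, 1.0 kb upstream (chr9:45936841-45937341), ranked at 79.4, 82.8 and 85.5 at E11.5, 68.9, 68.6 and 69.7 at E17.5, and 70.1, 63.1 and 70.7 in EPDCs, so it lost rank in both later groups (-13.5 and -14.6 points, adjusted p = 0.0049 and 0.0036). Both calls were lost when peaks were ranked by fold enrichment, and the first also with fragments over background.

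Other regions were highest at E17.5. The region downstream of Cspg4 at +49.2 kb (chr9:56913963-56914463), with an AP-1 and a TEAD match, ranked at 88.0, 95.4 and 91.0 at E17.5, was called once at E11.5, at 30.4, and never in EPDCs. E17.5 exceeded E11.5 by 81.3 points, the largest gain at E17.5 in the 131 regions. A region over an exon of Lmod1 at +42.4 kb (chr1:135366942-135367442) ranked at 70.0, 74.8 and 66.1 at E17.5 and was uncalled in the other 6 libraries (70.3 points). The same held for a region at +108.5 kb from the Myocd 5′ end (chr11:65161247-65161747), within the neighbouring gene Arhgap44, at 64.8, 75.2 and 68.1 (69.4 points). These regions passed the filter only through E17.5, so no test is given for them.

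**Figure D4:**
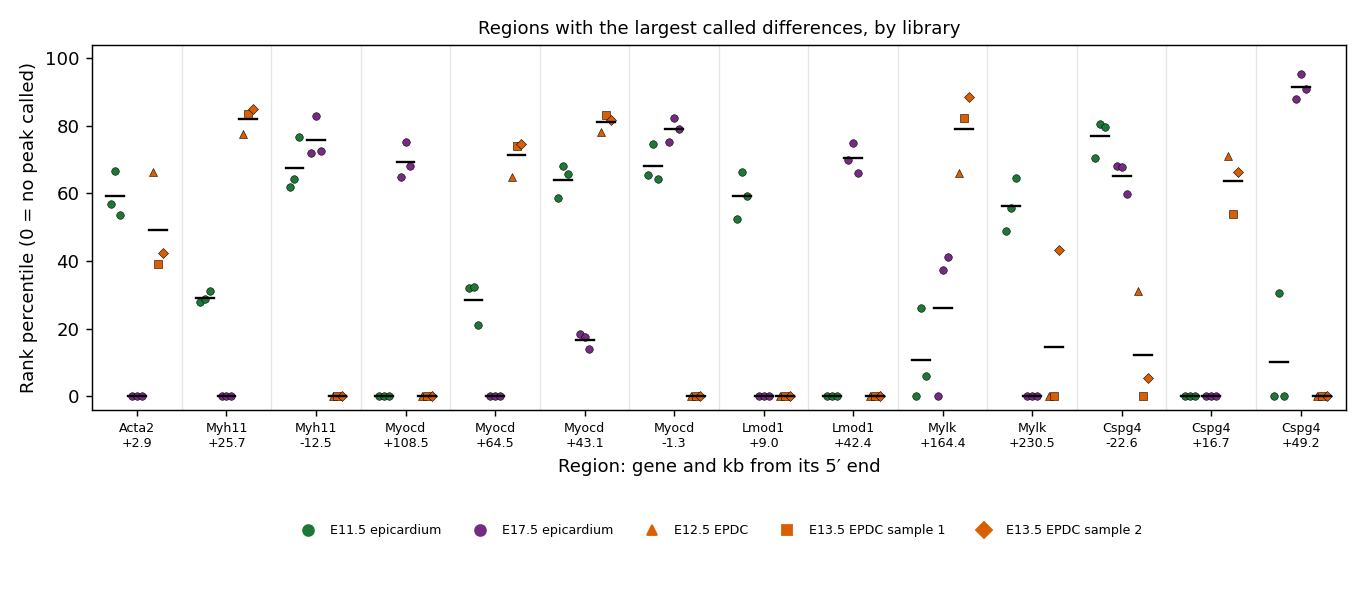
Rank percentile (y axis, 0 where no peak was called) of the regions with the largest called differences in the 9 libraries, named by gene and distance in kb from its 5′ end (x axis), with a line at each group mean. Myh11 +25.7 and Cspg4 +16.7 are highest in EPDCs, Myocd -1.3 and the upstream region of Myh11 are at 0 in EPDCs, and Lmod1 +42.4 and Cspg4 +49.2 are highest at E17.5.

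Regions that lost rank after E11.5 included introns of Acta2, Lmod1 and Mylk. The Acta2 intron at +2.9 kb (chr19:34252455-34252955) ranked at 57, 66.7 and 53.7 at E11.5, was uncalled at E17.5, and ranked at 66.3, 39.0 and 42.3 in EPDCs (E17.5 against E11.5, -59.1 points, limma, adjusted p = 0.00044). It was therefore present in EPDCs, 49.2 points above E17.5 (adjusted p = 0.000967, lost when ranked by fold enrichment). In contrast, the Lmod1 intron at +9.0 kb (chr1:135333527-135334027), at 52.4, 66.2 and 59.3 at E11.5, was uncalled in both later groups (-59.3 points each). The Mylk intron at +230.5 kb (chr16:34975499-34975999) ranked at 48.8, 55.7 and 64.7 at E11.5 and otherwise only at 43.3, in sample 2 of E13.5 (-56.4 points at E17.5 and -41.9 in EPDCs). The Lmod1 and Mylk regions passed the filter only through E11.5, so no test is given.

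The regions with the CArG boxes printed above moved in opposite ways. The Acta2 region 10.3 kb upstream (chr19:34265615-34266115) ranked at 46.2, 53.7 and 45.9 at E11.5, 64.4, 69.1 and 73.8 at E17.5, and 37.4, 45.5 and 59.3 in EPDCs. It was 20.5 points higher at E17.5 than at E11.5 (limma, adjusted p = 0.0298) and differed by -21.71 points in EPDCs from E17.5 (adjusted p = 0.0214). The Mylk region at +239.2 kb (chr16:34984186-34984686) ranked at 81.0, 85.2 and 85.0 at E11.5, 29.2, 33.6 and 24.4 at E17.5, and 52.6, 0 and 57.7 in EPDCs. From E11.5 it differed by -54.72 points at E17.5 (adjusted p = 0.0103) and by -47.02 in EPDCs (adjusted p = 0.0221). A further Mylk region with a CArG box, at +213.6 kb, ranked at 85.1, 91.3 and 91.7, then 75.3, 83.6 and 74.3, and 88.5, 83.7 and 88.1 in EPDCs, and differed by -11.64 points at E17.5 from E11.5 (adjusted p = 0.0114) and by 9.03 in EPDCs from E17.5 (adjusted p = 0.0337). These regions were chosen by the motif after their values were known.

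Mylk, the longest of the genes at 257.2 kb, held 42 of the 131 regions tested. At E17.5 against E11.5, 4 of them were higher (9.52%, against 9.10% of all regions) and 12 lower (28.6%, against 25.1%). In EPDCs against E11.5, 5 were higher (11.9%, against 10.3%) and 8 lower (19%, against 22.8%), and in EPDCs against E17.5 12 were higher (28.6%, against 20%) and 5 lower (11.9%, against 16.3%). In Rgs5 the strongest non-promoter region, in an exon at +40.01 kb (chr1:169695261-169695761), ranked at 64.0, 53.1 and 72.6 at E11.5, 0, 35.5 and 43.0 at E17.5, and 33.3, 35.0 and 41.3 in EPDCs. It was lower at E17.5, by a difference of -37.1 points (limma, adjusted p = 0.025), a call lost without E11.5 replicate 1 (-36.7) or 3 (-32.4), with the replicate block, with fragments over background, when ranked by fold enrichment and in a fit of only the 2 groups. The strongest region of Kcnj8, downstream at +14.4 kb (chr6:142556962-142557462), ranked at 83.8, 83.9 and 76.8 at E11.5, 39.2, 74.2 and 64.0 at E17.5, and 48.7, 14.0 and 42.0 in EPDCs, a difference of -46.6 points of EPDCs from E11.5 (adjusted p = 0.0085). That of Cspg4, at +59.7 kb within the gene Snx33 (chr9:56924496-56924996), ranked above 90 in all libraries, and its difference of -3.9 points at E17.5 against E11.5 (adjusted p = 0.0326) depended on the scale and was lost without E11.5 replicate 2 or 3, or E17.5 replicate 1 or 3. That call was also lost in a fit of only the 2 groups, in a fit without trend and with the replicate block. The strongest non-promoter regions of Acta2 (+11.3 kb, chr19:34244010-34244510) and Lmod1 (+43.6 kb) were called in no comparison.

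Among the EPDC libraries, E12.5 and E13.5 could be compared only as values, since E12.5 has 1 library. Over the 13 regions higher in EPDCs than in each epicardial stage, the median percentile was 60.7 at E12.5, and 63.3 and 66.2 in the E13.5 samples. E12.5 was the lowest of the 3 in 12 of these regions. They were chosen by their EPDC values, and the same share over all regions is not given, so this is not particular to these loci. The number of peaks in the lists follows the same order, 102002, 107557 and 131830, and its part in these values was not tested, while background fragments were alike in the first pair (4.19 and 4.26).

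As a description without a test, the motif content of these regions was set beside that of all regions. GATA matches stood in 36.8% of the 152 regions against 29.8% of all, TEAD in 36.2% against 33.1%, AP-1 in 27.0% against 22.8%, T-box in 2.63% against 1.97% and EBF in 0.658% against 2.04%. Of the 41 regions lower at E17.5 than at E11.5, 22 held a GATA match (53.7%), against 34.1% of all regions so called. Of the 23 regions lower in EPDCs than at E17.5, 11 held an AP-1 match (47.8%), against 37.7% of all regions so called, and of the 35 higher, 5 did (14.3%, against 16.9%).

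Beyond the 10 genes, 22 other smooth muscle genes were listed, all with a tested promoter. At E17.5 against E11.5, 0 were higher and 6 lower: Smtn, Cald1, Des, Myl9, Mrtfb and Gata6, among them smoothelin, caldesmon and desmin of the contractile cell and the serum response factor coactivator Mrtfb. The 6 are 27.3% of the list, against 14.4% of all promoters called lower. In EPDCs against E17.5, 5 were higher (22.7%, against 15.1%), Smtn, Tpm1, Des, Myl9 and Mrtfb, and 4 lower (18.2%, against 14.2%), Synpo2, Pln, Pdlim7 and Csrp1. In EPDCs against E11.5, 0 were higher, against 5.29% of all promoters, and 5 lower (22.7%, against 12.9%). The median differences in the same order were -2.73, 1.48 and -0.47 points. Des, for instance, ranked at 93.8, 96.2 and 95.8 at E11.5, 89.7, 92.1 and 88.0 at E17.5, and 96.2, 95.7 and 95.1 in EPDCs. Srf, which encodes serum response factor itself, ranked above 97 in all 9 libraries and was called in no comparison.

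Of 16 other mural cell genes, 14 were tested, and Higd1b and Vtn had no promoter peak. At E17.5 against E11.5, 0 were higher and 2 lower, Notch3 and Abcc9. In EPDCs against E17.5, 3 were higher, Notch3, Abcc9 and Cox4i2, and 2 lower, Mcam and Foxs1, which were also the 2 lower against E11.5, where 0 were higher. Each count of 2 is 14.3% of the list and lies near the 14.4%, 14.2% and 12.9% of all promoters called lower in these comparisons, and the 3 higher are 21.4%, against 15.1%. The medians were -2.18, 0.59 and -0.66 points for E17.5 against E11.5, EPDCs against E17.5 and EPDCs against E11.5. Abcc9 encodes the subunit that pairs with the Kcnj8 product in the potassium channel, and ranked at 81.7, 75.3 and 81.0 at E11.5, 57.1, 63.8 and 59.5 at E17.5, and 73.8, 76.2 and 82.5 in EPDCs. Notch3, the receptor of mural cells, ranked at 84, 86.8 and 77.2, then 68.1, 72.2 and 66.0, and 80.5, 82.3 and 83.2. Foxs1, a forkhead gene of pericytes, ranked between 57.8 and 74.3 in epicardium and was called in 0 of the 3 EPDC libraries (-67.7 points against E11.5, limma, adjusted p = 1.82e-06).

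Promoters of other cell types moved with the groups as well, though rarely as whole lists. The summed percentile of 8 epicardial markers was 633.6 to 647.3 at E11.5, 666.7 to 691.3 at E17.5 and 439.5 to 555.8 in EPDCs. The higher sum at E17.5 came from Msln, the mesothelin gene, which was uncalled at E11.5 and ranked at 77.4, 88.7 and 78.8 at E17.5, while Wt1 and Bnc1 were lower and the median difference of the 8 was -3.90 points. In EPDCs against E11.5, 5 of the 8 were lower and 0 higher, against 12.9% and 5.29% of all promoters.

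Cardiomyocyte markers, 10 in all, summed to 418.1 to 439.8 at E11.5, 310.4 to 457.8 at E17.5 and 306.2 to 366.4 in EPDCs. Tnnt2 and Actn2, genes of the sarcomere, moved as the smooth muscle promoters did. They differed by -24.79 and -12.12 points at E17.5 from E11.5 and by 17.61 and 9.32 points in EPDCs from E17.5, all called in limma (adjusted p = 0.000116, 0.000684, 0.000755 and 0.00266). Nkx2-5 was also higher in EPDCs than at E17.5. Myl7 went the other way, higher at E17.5 than at E11.5, and Myl7 and Myh7 were uncalled in EPDCs. Myh6 was at 0 in all libraries and Ttn in all but 1.

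The 9 fibroblast markers summed to 492.1 to 532.3, 583.5 to 615.3 and 589.2 to 664.8 at E11.5, at E17.5 and in EPDCs, with Dpt at 0 in all. Postn and Col1a2 were higher than at E11.5 in both later groups, and Dcn was lower in both. For 10 endothelial markers the sums were 380.5 to 403.4, 352.2 to 379.3 and 387.9 to 451.4. Of these, Cdh5, Tie1, Emcn and Robo4 were at 0 in all libraries. Pecam1, which encodes the CD31 of the sort gate, was at 0 in all epicardial libraries and at 0, 25.5 and 36.7 in EPDCs, and Kdr ranked at 88.1 to 89.6 in epicardium and 90.7 to 93.2 in EPDCs but was called in no comparison. Egfl7 and Esam were lower at E17.5 than at E11.5, and Egfl7 was higher in EPDCs than at E17.5. Of 10 blood markers, Ptprc, Gata1, Spi1, Hbb-bt, Klf1, Cd53 and Tyrobp were at 0 in all libraries. The list summed to 17.9 to 28.5, 0 to 1.0 and 53.5 to 64.9, and its EPDC signal was Lyz2, at 31.1, 53.5 and 64.9, beside a single Csf1r call in the E12.5 library. The part of these cell types in the differences of the smooth muscle and pericyte genes was not tested.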

How the data were processed

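Bulk ATAC-seq peak lists of 9 libraries from 10 samples were analysed. According to the study's methods, the authors aligned reads to mm10, removed duplicate, multimapped, blacklisted and mitochondrial reads, and ran MACS2 2.2.9.1 on fragment pairs, with the q-value held under 0.01 and each summit of a peak listed. The deposited lists give for each summit a fold enrichment (a ratio to local background), and a −log10 p and −log10 q from the authors' peak caller. The values are not normalised between libraries. Fragment counts were solved from the fold enrichment and −log10 p.

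Windows reaching 250 bp to either side of a summit were merged across lists by dropping the weaker of overlapping ones. Groups came from the sample labels. E12.5 and E13.5 EPDCs were combined, as in the study. Percentiles were compared with limma 3.58.1 (R 4.3.3, group means of 3 groups, empirical Bayes with trend and robust, Benjamini-Hochberg over all features kept), and single values by a two-sided exact permutation test over 20 or 84 assignments. Each group rests on 3 biological samples. With peak lists, precision is set by these numbers and by the depth given with the results. Python 3.11.15, pandas 2.3.3, numpy 2.4.6 and scipy 1.17.1 were used. Genes were taken from GENCODE for mm10. The scripts were tested on simulated data with known differences.

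The genes, lists and motifs were chosen with earlier results of these data known. All 10 genes were named with their promoters, with the 3 called regions of largest difference in each direction of each comparison and the strongest non-promoter region of each gene. Regions with a printed CArG box and the start sites inside genes were added after their values were seen. Alternatives were a stricter peak threshold (−log10 q of at least 5), equal numbers of top peaks, ranking by fold enrichment, the log2 of the score scaled to its list's total, with a pseudocount of 1, interval overlap, other filters (1 or 3 libraries), 2 groups alone, no trend, a flank of 10 kb, promoters within 500 bp, each replicate left out and the replicate block. Fragments over background, any annotated start and the 6 epicardial libraries without a block were added after seeing the data. The authors' window counts and edgeR test were not used here.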

Additional observations from a re-analysis of the deposited data

How the results depend on the processing

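Of 254 counts of called promoters and regions recomputed under the alternatives, 241 stayed within 1.5 times the reported count. Among them are promoter counts of 0 that were 0 under every alternative, which adds to this total. Regions higher at E17.5 than at E11.5 went from 12 to 19 with the log2 scaled score, and regions higher in EPDCs than at E11.5 from 15 to 26 with equal numbers of top peaks. Over all regions, the first count went from 14150 to 22375, both of 155564. The second went from 16020 of 155564 to 21088 of 126618. With fragments over background, a scale added after seeing the data, regions lower at E17.5 went from 41 to 27, regions higher in EPDCs than at E17.5 from 35 to 21, promoters higher in EPDCs than at E17.5 from 8 to 4, and promoters higher in EPDCs than at E11.5 from 0 to 2. Over all features, these counts went from 39017 to 31055, from 31076 to 24914, from 2357 to 1274 and from 827 to 1136. Promoters of these genes higher in EPDCs than at E11.5 numbered 3 with equal numbers of top peaks, 3 with the log2 scaled score, 1 when ranked by fold enrichment, 1 with only the compared groups, and 0 to 1 with a replicate left out (1 without E11.5 replicate 1 and 1 without E17.5 replicate 2). Over these omissions, promoters lower at E17.5 numbered 5 to 6 and promoters higher in EPDCs than at E17.5 6 to 8. The Cspg4 region at +59.7 kb changed sign with fragments over background (0.148 in log2 at E17.5 against E11.5). Leaving aside the fragment scale and the annotated starts, 260 of 278 promoter values and 747 of 780 region values kept their direction and call, and the others kept their direction only. These values are called differences of the named promoters and regions. Many of the regions were named for large differences, and some passed the filter only through the group where they were high. Such values were likely to stay, so the totals do not measure stability. The causes of the changes were not tested. Replicate numbers were not taken to pair the epicardial samples. The deviations of same-numbered libraries correlated at 0.0146, 0.038 and -0.0328 over regions and at 0.0435, 0.107 and -0.0532 over promoters, not all over 0.1. With 3 libraries per stage, this cannot exclude a shared batch. With the replicate block, 8 regions were higher and 22 lower at E17.5, against 11 and 33 in the same 6 libraries without it, and 0 promoters were higher and 4 lower, against 0 and 6. Over all regions the block gave 8665 higher and 22800 lower, against 13212 and 34836. Over all promoters it gave 562 and 1651, against 800 and 2222. Depth limits what an uncalled site can show, since weak sites fall below the caller's threshold in the shallower lists.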
